A study of Homo sapiens with 4 samples.

Results

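Interferon-stimulated genes (ISGs) are the genes that cells switch on after interferon, and 46 well-known ones were followed here by symbol. Of these, 43 had a row with their symbol alone, among 21469 such genes in all, and each was read from its brightest such row. IRF9 and TRIM25 lay on rows shared with another gene, and STAT2 was not analysed here.

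The cells were U2OS, which derive from a human bone tumour (osteosarcoma). Their RNA was read on 4 arrays, 2 after 48 h in nocodazole and 2 after 48 h in the solvent DMSO, numbered as replicates 2 and 3 of each group. All cells had first been synchronised by 24 h without serum and 24 h in thymidine, then kept for 3 h in drug-free medium. The sample titles add the name PLKO.1 without saying what it stands for. Nocodazole depolymerises microtubules and arrests cells in mitosis, and the series concerns cells that have slipped out of that arrest and their secretory, senescence-associated factors. The design text calls the replicates biological. The RNA came from whole cultures, so fewer cells with a transcript and less transcript per cell cannot be told apart.

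Cells make interferon when sensors detect foreign or misplaced nucleic acid. Interferon then binds its receptor, and JAK kinases activate transcription factors that bind a DNA motif called the interferon-stimulated response element (ISRE) in front of ISGs. The proteins made bind viral RNA, block entry or budding, tag other proteins with ISG15, or feed peptides to MHC class I. Mitotic errors that leave DNA in the cytosol are a known way to start this pathway in some cell lines.

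No ISG passed the test after the arrays were quantile normalized, which makes their value distributions equal. limma called 0 of 43 members higher and 0 lower with nocodazole, at adjusted p from 0.409 to 0.997, where it called 0.168% of all genes higher and 0.0978% lower. At an unadjusted p under 0.05 there was 1 member higher (IFIT2) and 2 lower (PARP9 and DTX3L), against 3.91% and 5.43% of all genes. The median log2 fold change of the members, nocodazole over DMSO, was 0.05, with 24 above 0 and 19 below, and that of all genes tested was -0.01. Single members ran from -0.42 to 0.74.

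Intervals here are those after quantile normalization. The 95% interval of the change lay within -1 and 1, that is within a 2-fold change either way, for 41 of the 43 members. It did so for 19901 of all 21469 genes as well. The exceptions were IFIT2, whose interval reached 1.34, and IFI44L, whose interval reached -1.003. Both lay near background, as did 14 of the 41, and changes there may not show. For each of the 20 members above background the interval stayed inside that range, with 0.68 as the highest upper end and -0.66 as the lowest lower end. Of all genes above background, 12676 of 12941 had such an interval. These intervals come from 2 arrays a group and are not adjusted for the number of genes. They do not cover the values as deposited, where the median change of all genes was -0.45. There the changes of the 20 members above background ran from -0.81 to -0.17.

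**Figure D1:**
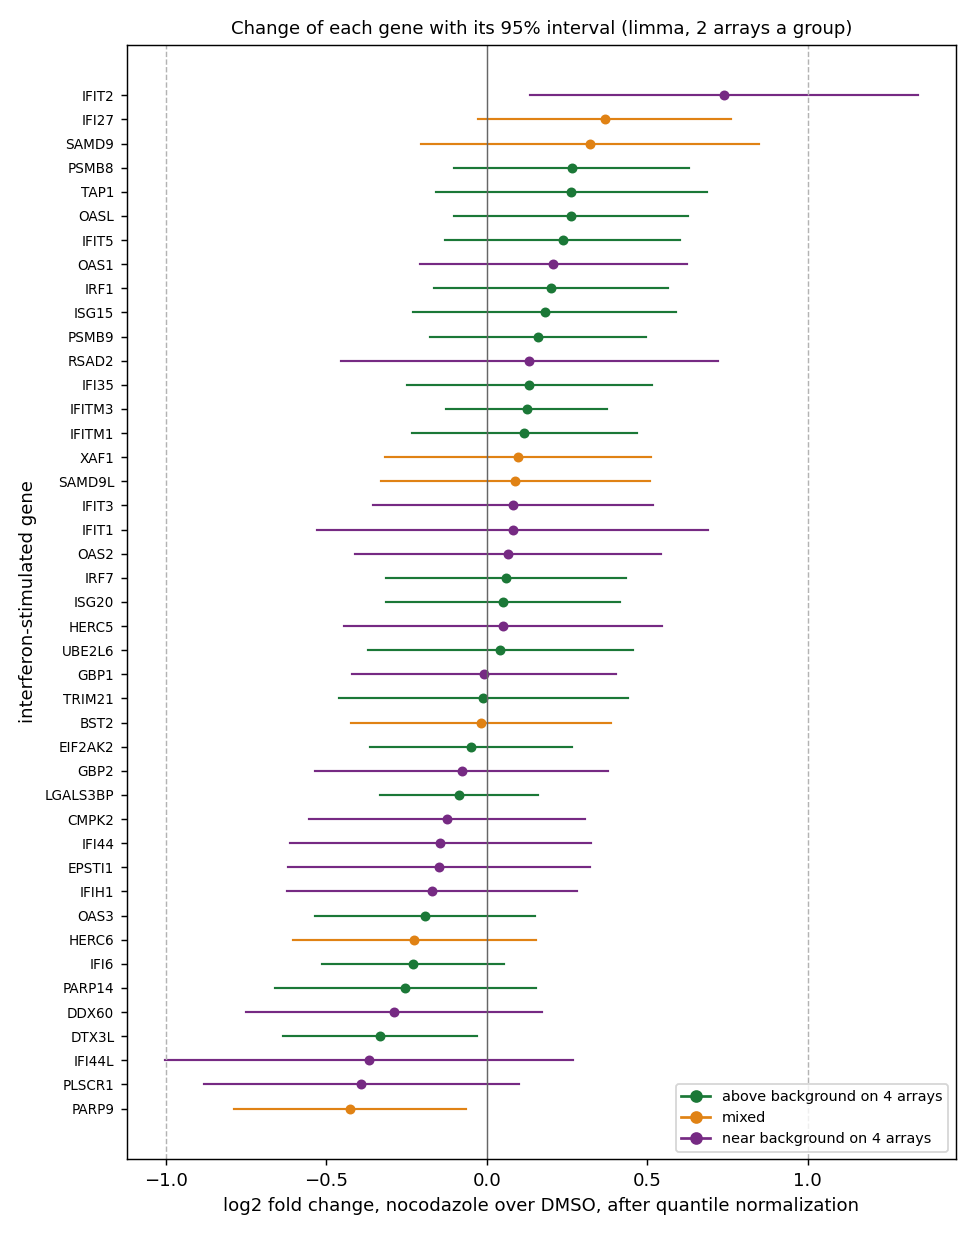
Log2 fold change of each of the 43 ISGs, nocodazole over DMSO, after quantile normalization (x axis), with limma's 95% interval as a line. Colours give the class against the background rows, and dashed lines mark a 2-fold change; the points run from -0.42 for PARP9 to 0.74 for IFIT2.

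On the values as deposited the picture moved with the whole array. The median change of all genes there was -0.45, and 24.9% of all genes were called lower and 0.238% higher. Among the members 7 of 43 (16.3%) were called lower, namely PARP9, DTX3L, IFI6, PARP14, LGALS3BP, EIF2AK2 and UBE2L6, and 0 higher. Of the 20 members above background 6 (30%) were called lower, against 39.5% of all genes above background. The members' median was -0.38 as deposited, 0.06 above that of all genes, and after quantile normalization it was also 0.06 above. That difference rested on single arrays, at 0.0011 without nocodazole replicate 2 and 0.022 without DMSO replicate 3. Of the members, 42 of 43 had a negative change as deposited, with IFIT2 at 0.32 as the exception. Changes below are those after quantile normalization unless the deposited scale is named.

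**Figure D2:**
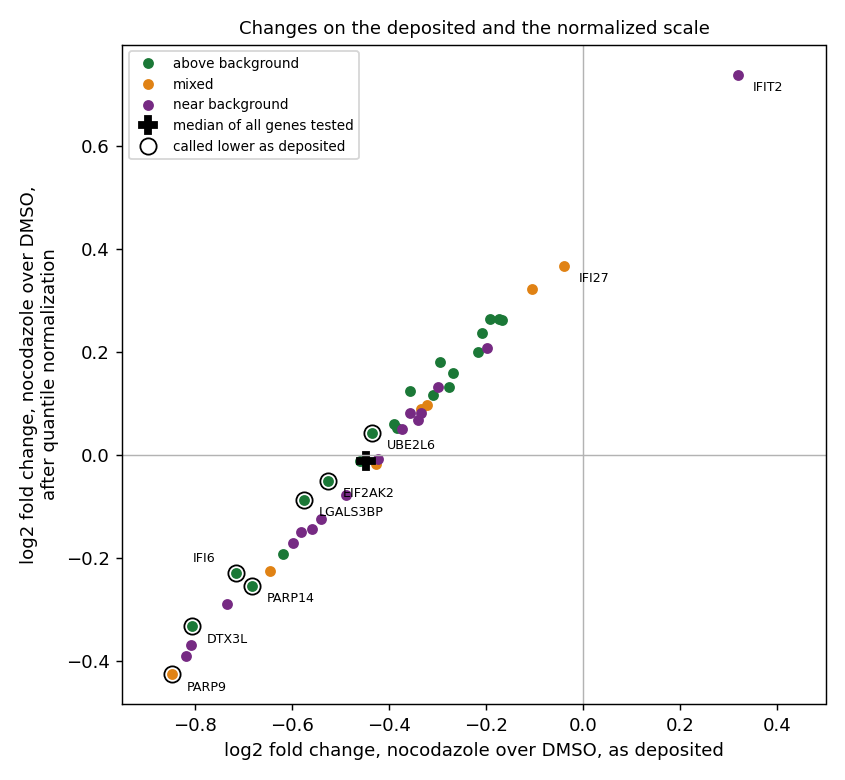
Log2 fold change of the 43 ISGs as deposited (x axis) and after quantile normalization (y axis), nocodazole over DMSO. The black cross is the median of all genes tested, at -0.45 and -0.01, and rings mark the 7 members called lower as deposited; the members spread on both sides of the cross.

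The arrays carry 23 background rows of antigenomic probes, which match no human sequence, and their median served as the background of each array. It was 4.36 and 3.72 on nocodazole replicates 2 and 3, against 4.81 and 4.02 on DMSO replicates 2 and 3. A member was put above background where it exceeded that median by more than 1 on the log2 scale on each of the 4 arrays, near background where it did so on none, and mixed otherwise. By this rule 20 members were above, 16 near and 7 mixed, shares of 46.5%, 37.2% and 16.3%, against 60.3%, 27.6% and 12.1% of all genes. The names of the background rows give GC bins from 3 to 25, and their values ran from 1.11 to 12.1, with bin 25 the highest on each array. The GC content of a member's probes was not known, so the class is a rough one. The deposited values are also coarse where signal is low. Between 3 and 4 on the log2 scale, 11134 and 11079 rows took 160 and 146 distinct values on the nocodazole arrays, against 8200 and 10493 rows with 143 and 166 distinct values on the DMSO arrays, so that many rows share a value. What made the values coarse was not tested. Of 9 haematopoietic markers, which osteosarcoma cells should lack, 2 (CD79A and SPI1) were also above by this rule, 2 were mixed and 5 near, PTPRC among them. Of 10 mesenchymal and bone markers 8 were above, including VIM, COL1A1, FN1 and SPARC, while RUNX2 was mixed and IBSP near. Of 6 epithelial markers 3 (KRT8, KRT18 and KRT19) were above too, 2 were mixed and 1 near. Of 5 plasmacytoid dendritic markers 1 (TCF4) was above, 1 mixed and 3 near. limma called 0 of the 30 cell type markers measured, but 7 (23.3%) were lower at an unadjusted p under 0.05, against 5.43% of all genes, and 1 was higher. Of these 7, 5 were among the 10 mesenchymal and bone markers, namely COL1A1 at -0.69 (limma adjusted p = 0.0696), SPARC at -0.64 (limma adjusted p = 0.0887), FN1 at -0.51, RUNX2 at -0.46 and VIM at -0.28. The 1 higher marker, ALPL at 0.41, came from the same 10, of which 4 had changes above 0 and 6 below. The part of the cell type markers in the members' values was not tested.

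**Figure D3:**
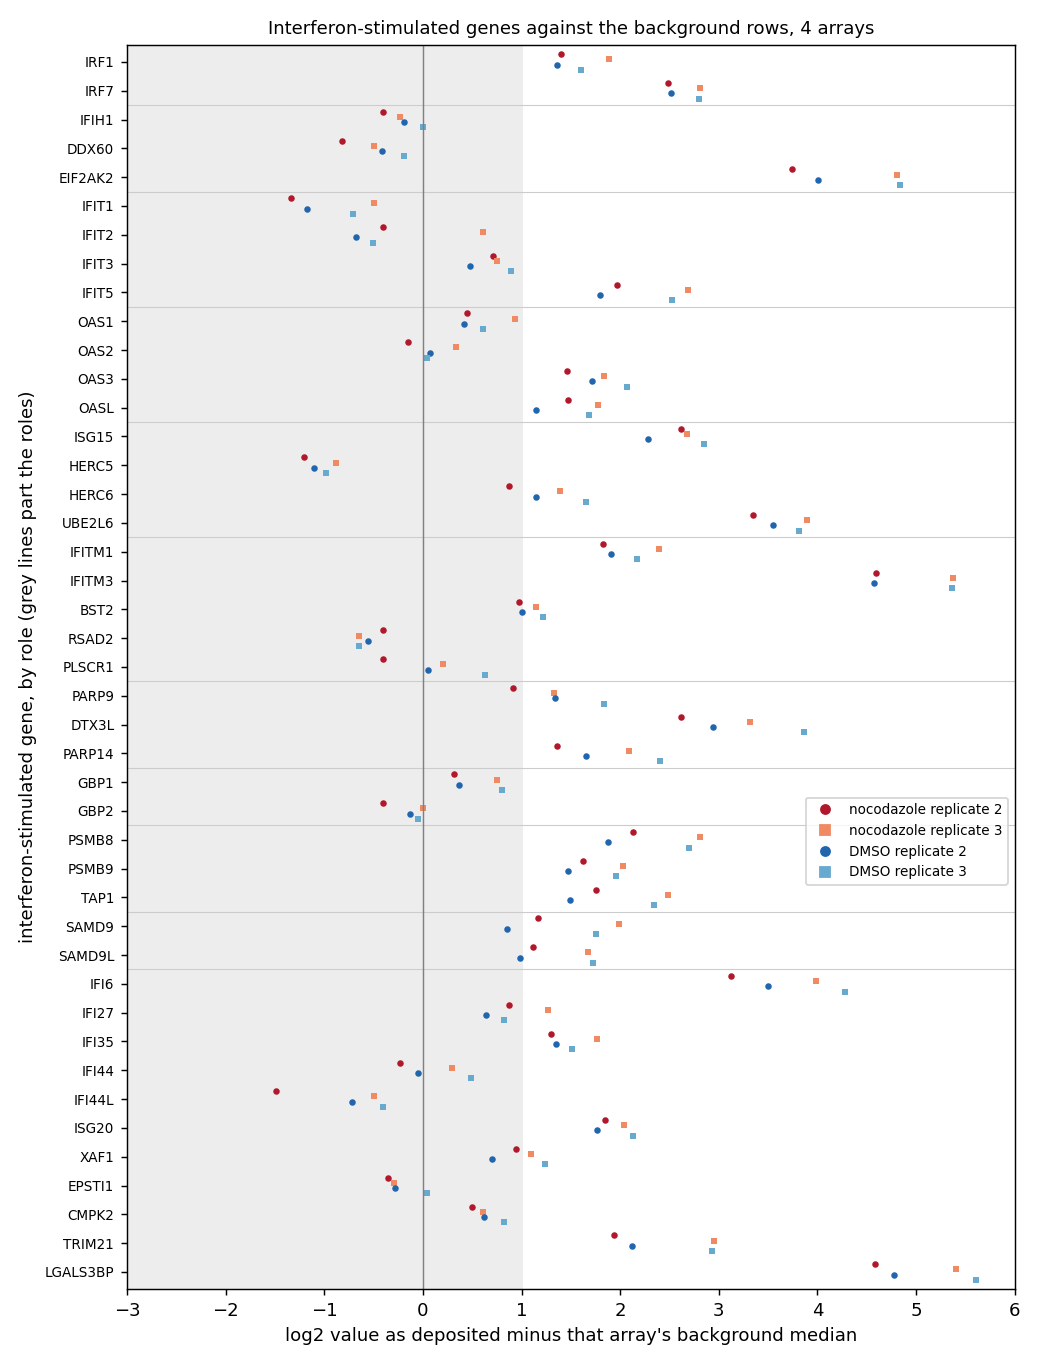
Deposited log2 value of each of the 43 ISGs minus the background median of the same array (x axis), 1 point per array, genes ordered by role. The shaded zone up to 1 is near background; IFIT1, HERC5 and IFI44L lie left of 0 on all 4 arrays, while IFITM3 and LGALS3BP lie above 4 on all of them.

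Among the transcription factors of the pathway, IRF1 and IRF7 were above background, and neither passed the test. IRF1, an interferon-induced activator of antigen presentation genes, had normalized values of 5.85 and 5.93 with nocodazole, against 5.78 and 5.60 with DMSO. The nocodazole arrays both lay above the DMSO arrays, and the log2 fold change was 0.20 ± 0.16 (SE, n = 2 per group; limma adjusted p = 0.832). As deposited it was -0.22. IRF7, which drives interferon alpha genes, had 7.04 and 6.81 with nocodazole, against 7.02 and 6.70 with DMSO, so that the groups overlapped. The log2 difference came to 0.06 ± 0.16 (limma adjusted p = 0.982), and it was -0.39 as deposited.

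Sensors of double-stranded RNA split by level. IFIH1, which encodes the RNA sensor MDA5, and DDX60, a helicase linked to RNA sensing, were near background. EIF2AK2, which encodes the kinase PKR that halts translation on double-stranded RNA, was 3.75 to 4.84 above background. DDX60 had normalized values of 3.59 and 3.63 with nocodazole, against 3.89 and 3.90 with DMSO. The groups did not overlap, and the log2 fold change was -0.29 ± 0.20 (limma adjusted p = 0.777). EIF2AK2 had 8.39 and 8.71 with nocodazole, against 8.62 and 8.57 with DMSO, which puts the 2 nocodazole arrays on either side of the DMSO arrays. Its change was -0.05 ± 0.14 on the log2 scale (limma adjusted p = 0.982); as deposited it was called lower, at -0.53.

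IFIT proteins bind viral RNA by its end structure or act on translation. IFIT1, IFIT2 and IFIT3 were near background and IFIT5 above. IFIT2 had the largest change of all 43 members, with normalized values of 4.003 and 4.69 with nocodazole, against 3.63 and 3.59 with DMSO. The groups did not overlap, but the nocodazole arrays spread by 0.49 (SD, n = 2), and the log2 fold change of 0.74 ± 0.26 did not pass (limma adjusted p = 0.409). Its deposited values were -0.40 and 0.61 from the background median with nocodazole, against -0.68 and -0.50 with DMSO. The size rested on nocodazole replicate 3, without which the change was 0.39. In the same fit PLSCR1 (-0.54), PARP9 (-0.45) and IFI44L, among others, had changes larger in size. Without nocodazole replicate 2 the change of IFIT2 was 1.08. On nocodazole replicate 2 its value was shared exactly by 410 rows of the array, IFIH1, RSAD2, PLSCR1 and GBP2 among them. IFIT1, the family member most often used as an interferon readout, was below the background median on each array, and its log2 fold change was 0.08 ± 0.26. IFIT5 had 6.47 and 6.70 with nocodazole, against 6.23 and 6.46 with DMSO, groups that just missed overlapping, and a change of 0.24 ± 0.16 (limma adjusted p = 0.764) that was -0.21 as deposited.

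OAS enzymes make a second messenger from ATP on double-stranded RNA, which activates the nuclease RNase L; OASL is a relative without that activity. OAS3 and OASL were above background, OAS1 and OAS2 near. OASL had normalized values of 5.94 and 5.82 with nocodazole, against 5.55 and 5.68 with DMSO. OAS3 had 5.92 and 5.89 with nocodazole, against 6.16 and 6.04 with DMSO. Neither pair of groups overlapped, and they parted in opposite directions, with log2 fold changes of 0.26 ± 0.16 for OASL and -0.19 ± 0.15 for OAS3 (limma adjusted p = 0.715 and 0.826). As deposited they were -0.17 and -0.62. OAS1 and OAS2 had changes of 0.21 and 0.07.

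ISG15 is a ubiquitin-like protein that interferon both induces and has attached to other proteins. ISG15 itself was above background, as was UBE2L6, its conjugating enzyme. HERC5, the human ISG15 ligase, was below the background median on all 4 arrays, and HERC6, a related protein, was mixed. ISG15 had normalized values of 7.17 and 6.69 with nocodazole, against 6.76 and 6.75 with DMSO, and the nocodazole arrays again stood on either side of the DMSO arrays. UBE2L6 had 7.99 and 7.84 with nocodazole, against 8.13 and 7.61 with DMSO. Their log2 fold changes were 0.18 ± 0.18 and 0.04 ± 0.18 (limma adjusted p = 0.891 and 0.988); UBE2L6 was called lower as deposited, at -0.43. HERC6 had 5.31 and 5.45 with nocodazole, against 5.55 and 5.66 with DMSO, groups that did not overlap, at -0.22 ± 0.16 (limma adjusted p = 0.801).

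Among proteins that act at membranes, IFITM1 and IFITM3, which block virus fusion, were above background, BST2 (tetherin), which holds back budding virus, was mixed, and RSAD2 (viperin) and PLSCR1, a phospholipid scramblase, were near. IFITM3 had normalized values of 9.27 and 9.26 with nocodazole, against 9.21 and 9.08 with DMSO. Its change was 0.12 ± 0.11 on the log2 scale (limma adjusted p = 0.864), with a 95% interval from -0.13 to 0.37, and it was -0.36 as deposited. IFITM genes are near-identical in parts, so their rows may share signal. PLSCR1 had 4.003 and 4.30 with nocodazole, against 4.40 and 4.68 with DMSO, groups that did not overlap, and a change of -0.39 ± 0.21 (limma adjusted p = 0.660).

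PARP9, DTX3L and PARP14 all had negative changes on both scales, and none passed after quantile normalization. PARP9 and the ubiquitin ligase DTX3L form a complex that adds to interferon and DNA damage responses, and PARP14 is an ADP-ribosyltransferase. PARP9 had normalized values of 5.34 and 5.39 with nocodazole, against 5.76 and 5.83 with DMSO. DTX3L had 7.18 and 7.30 with nocodazole, against 7.48 and 7.66 with DMSO. For both genes each nocodazole array lay below each DMSO array, by log2 fold changes of -0.42 ± 0.16 and -0.33 ± 0.13 (limma adjusted p = 0.430 and 0.469). PARP14 had 5.82 and 6.13 with nocodazole, against 6.09 and 6.35 with DMSO, which overlap, and a change of -0.25 ± 0.18. All 3 were called lower as deposited, at -0.85, -0.81 and -0.68, and after median centring of each array the changes of PARP9 and DTX3L were -0.43 and -0.39 and were not called. PARP9 and DTX3L are neighbours in the RefSeq gene table.

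The 3 antigen processing genes among the members had changes on the other side of 0 after quantile normalization, and on the same side as most genes as deposited. PSMB8 and PSMB9 encode immunoproteasome subunits and TAP1 a subunit of the transporter that carries peptides to MHC class I, and the 3 genes follow each other in the RefSeq gene table. All 3 were above background. PSMB8 had normalized values of 6.65 and 6.82 with nocodazole, against 6.32 and 6.62 with DMSO. Its groups did not overlap, and the log2 fold change was 0.26 ± 0.16 (limma adjusted p = 0.715). TAP1 had 6.23 and 6.51 with nocodazole, against 5.92 and 6.29 with DMSO, groups that overlapped, and a change of 0.26 ± 0.18. PSMB9 had 6.09 and 6.06 with nocodazole, against 5.89 and 5.94 with DMSO, and did not overlap, with a change of 0.16 ± 0.15. As deposited these changes were -0.19, -0.17 and -0.27. Other genes of antigen processing and MHC class I, in the further list given below, lay on both sides of 0 after quantile normalization. They ran from -0.25 for ERAP1 to 0.44 for HLA-E.

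**Figure D4:**
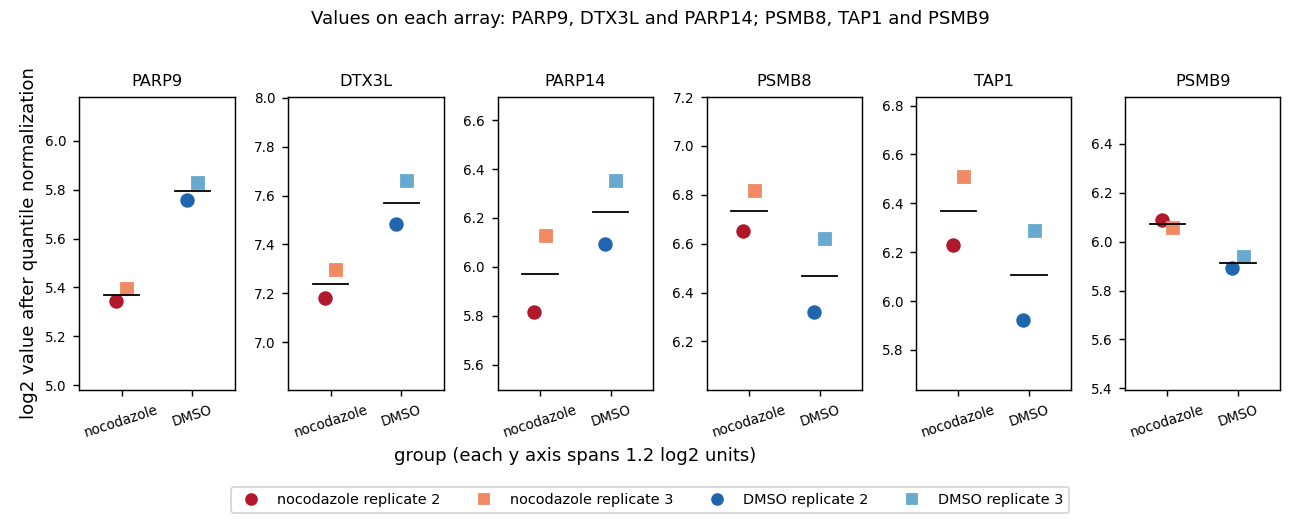
Log2 values after quantile normalization on each array (points) with group means (bars), nocodazole left of DMSO, for PARP9, DTX3L and PARP14 and for PSMB8, TAP1 and PSMB9. Each y axis spans the same width; the nocodazole means lie lower for the first 3 genes and higher for the last 3, and none of the 6 passed the test.

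GBP1 and GBP2, guanylate-binding GTPases that act on pathogens in cells, were near background, with changes of -0.01 ± 0.18 and -0.08 ± 0.20. GBP1 had normalized values of 4.74 and 4.83 with nocodazole, against 4.74 and 4.84 with DMSO. GBP2 had 4.003 and 4.08 with nocodazole, against 4.20 and 4.04 with DMSO. Both pairs of groups overlapped. SAMD9 and SAMD9L, neighbouring genes whose products restrict poxviruses and protein synthesis, were mixed. SAMD9 had 5.61 and 6.03 with nocodazole, against 5.24 and 5.75 with DMSO, which overlap, and a change of 0.32 ± 0.23 (limma adjusted p = 0.786) that was -0.10 as deposited. With 1 array left out it ran from 0.065 without DMSO replicate 2 to 0.58 without DMSO replicate 3.

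The 11 other effectors held 5 members above background (IFI6, IFI35, ISG20, TRIM21 and LGALS3BP), 2 mixed (IFI27 and XAF1) and 4 near (IFI44, IFI44L, EPSTI1 and CMPK2). IFI27, a mitochondrial and nuclear membrane protein gene often used in interferon scores, had normalized values of 5.30 and 5.33 with nocodazole, against 5.02 and 4.87 with DMSO. The groups did not overlap, and the log2 fold change was 0.37 ± 0.17 (limma adjusted p = 0.576), and -0.04 as deposited. LGALS3BP, a secreted galectin-binding glycoprotein, had 9.26 and 9.30 with nocodazole, against 9.43 and 9.31 with DMSO, so that the nocodazole arrays were just below the DMSO arrays. Its change was -0.09 ± 0.11 on the log2 scale (limma adjusted p = 0.931), and it was called lower as deposited, at -0.58. IFI6, a mitochondrial anti-apoptotic protein gene, had 7.74 and 7.92 with nocodazole, against 8.09 and 8.03 with DMSO, a change of -0.23 ± 0.12 (limma adjusted p = 0.653) that was called lower as deposited, at -0.72. IFI44L had the widest interval, from -1.003 to 0.27, with nocodazole arrays at 2.92 and 3.63, against DMSO arrays at 3.59 and 3.69.

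Over the 43 members, the nocodazole arrays both lay above the DMSO arrays for 10 (23.3%) and both below for 9 (20.9%) after quantile normalization, against 16.4% and 20.0% of all genes. As deposited 26 members (60.5%) had both nocodazole arrays below both DMSO arrays, against 66.3% of all genes, and 0 had both above, against 1.29% of all genes. The members above background had a median change of 0.09 over 20 genes, the mixed ones 0.09 over 7 and those near background -0.04 over 16. All genes of the same classes had medians of -0.01, -0.03 and -0.00. DMSO replicate 2 had the highest deposited value for 34 of the 43 members (79.1%) and nocodazole replicate 3 the lowest for 27 (62.8%), near the 72.5% and 62.1% of all genes; the background medians rank these 2 arrays the same way, and the part of the background in the members' values was not tested.

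Members near and above background alike carry the ISRE letters in their promoters. RefSeq windows of 250 bases before to 50 bases after the start (GRCh38.p14) were found for 38 members, and the motif GAAANNGAAA was searched on both strands. It was present in 26 of the 38 (68.4%), against 3.57% of all 35116 windows. By class it was in 13 of 18 members above background, 3 of 7 mixed and 10 of 13 near. Members with an ISRE match had a median log2 fold change of -0.01 and those without one 0.12, over 26 and 12 genes. A match is a description of the letters, not of a site in use. The stretches below show the motif in 3 members above background and 3 near it, 5′ to 3′ on the strand of the gene, all upstream of the start, with whole matches in capitals (for GBP1 the match is on the other strand and is shown as it reads on this one).
IFITM3 (above background, chr11:320861-320940, minus strand): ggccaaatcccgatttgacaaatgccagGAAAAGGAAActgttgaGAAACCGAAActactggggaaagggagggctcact
LGALS3BP (above background, chr17:78979937-78980016, minus strand): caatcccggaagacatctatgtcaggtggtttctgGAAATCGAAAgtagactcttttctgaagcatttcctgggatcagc
OAS3 (above background, chr12:112938394-112938473, plus strand): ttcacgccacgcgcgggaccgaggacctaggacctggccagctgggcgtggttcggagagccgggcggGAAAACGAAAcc
DDX60 (near background, chr4:168318761-168318840, minus strand): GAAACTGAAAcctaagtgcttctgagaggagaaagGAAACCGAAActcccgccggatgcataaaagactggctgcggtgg
PLSCR1 (near background, chr3:146544642-146544721, minus strand): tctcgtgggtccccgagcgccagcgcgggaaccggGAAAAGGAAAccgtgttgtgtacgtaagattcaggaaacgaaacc
GBP1 (near background, chr1:89065291-89065370, minus strand): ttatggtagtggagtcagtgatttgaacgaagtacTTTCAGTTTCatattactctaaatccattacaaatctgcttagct
IFITM3 and DDX60 show 2 whole matches each within these 80 bases and the other 4 members 1 each. The changes of the 6 members ran from -0.39 for PLSCR1 to 0.12 for IFITM3, and none passed the test.

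The rest of the pathway gave no call either after quantile normalization. Of 21 interferon ligand genes, 18 were near background, among them IFNB1 and all 13 IFNA genes. IFNL2 and IFNL3 lay 1.58 to 2.55 above the background median on the 4 arrays, and IFNL1 was mixed. Of the 21, 0 were called higher or lower by limma, with 1 higher and 1 lower at an unadjusted p under 0.05. Their median change was -0.06. IFNA10 had the largest, at 0.74 ± 0.23 (limma adjusted p = 0.324), and IFNB1, the first interferon made by most cells, had -0.48 ± 0.30 (limma adjusted p = 0.736). IFNA genes are near-identical to each other, as are IFNL2 and IFNL3, so their rows may share signal.

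Of 17 receptor and JAK-STAT signalling genes, 10 were measured and 9 of these were above background, among them JAK1, TYK2, IFNGR1 and the inhibitors SOCS1 and SOCS3. None was called, nor passed an unadjusted p under 0.05, and their median change was -0.08. As deposited 3 of the 10 (30%) were called lower and 0 higher. Of all genes 24.9% were called lower there, and of all genes above background 39.5%. JAK2 had the largest change, at -0.30 ± 0.26 (limma adjusted p = 0.864), and was near background. Of 14 genes of RNA sensing upstream of interferon, 12 were measured and 11 were above background, including MAVS, TBK1 and IRF3. limma called 0 of them, with 0 at an unadjusted p under 0.05, and their median change was 0.09. As deposited 1 of the 12 (8.33%) was called lower, against 24.9% of all genes and 39.5% of all genes above background. RIGI, the RNA sensor RIG-I, had the largest change, at 0.44 ± 0.22 (limma adjusted p = 0.608), and -0.00 as deposited.

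A further list of 65 ISGs had 56 measured, 44 of them above background. limma called 0, with 5 higher (8.93%) and 1 lower (1.79%) at an unadjusted p under 0.05, against 3.91% and 5.43% of all genes, and the median change was 0.02. As deposited 17 (30.4%) were called lower and 0 higher, against 24.9% of all genes and 39.5% of all genes above background called lower. SLFN5, a Schlafen family gene, had the largest change, with normalized values of 7.78 and 7.998 with nocodazole, against 6.92 and 7.25 with DMSO. Each nocodazole array lay above each DMSO array, and the log2 fold change of 0.81 ± 0.16 did not pass (limma adjusted p = 0.104). As deposited its change was 0.31. The chemokine genes CXCL10 and CXCL11, both textbook interferon targets, were near background. Their changes were -0.12 ± 0.27 and 0.65 ± 0.25 (limma adjusted p = 0.976 and 0.461). For CXCL11 each nocodazole array lay above each DMSO array on both scales.

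**Figure D5:**
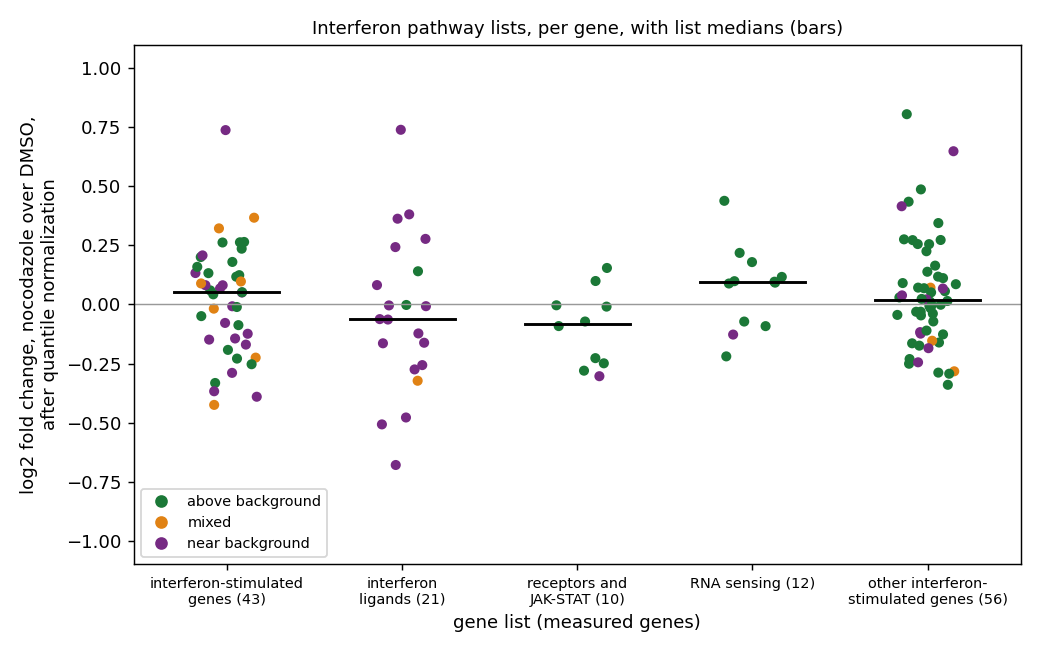
Log2 fold change per gene after quantile normalization, nocodazole over DMSO (y axis), for the 43 ISGs and 4 further lists (x axis), with list medians as bars. Colours give the class against background; list medians lie between -0.08 and 0.09, and no point is a called gene.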

How the data were processed

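RNA from 4 cultures of U2OS cells was hybridised to Affymetrix Human Transcriptome Array 2.0 arrays, 1 per sample. Each row of the deposited table holds log2 expression. Per the submitters' processing notes they were made with Partek 7.0 and RMA (robust multi-array average) on the build hg19, with settings that the sources used here do not give. RMA and the range of values gave the log base.

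Of 65535 rows, 1530 were control rows. Of the other 64005, 21771 had 1 gene symbol, 1328 several and 40906 none in the platform annotation. Only rows with a single symbol were used, the brightest row on average for each of 288 genes with several, giving 21469 genes. The deposited columns had unequal medians, so all rows were quantile normalized (normalizeQuantiles), and nocodazole was tested against DMSO with lmFit and eBayes with a variance trend (limma 3.58.1, R 4.3.3), without a block. P-values were Benjamini-Hochberg adjusted over all genes, and a gene was called at an adjusted p under 0.05. Errors of changes are limma's standard errors (SE), errors of means are standard deviations (SD), and intervals are unadjusted 95% intervals. The steps were tested on simulated data with noise drawn independently for each array. That noise lacks the correlation by replicate number given below, and how often a 2-fold change was called in it is not given here. The number of arrays limits the precision.

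The median of 23 antigenomic rows on each array stood for its background. Members, lists and tests were chosen with earlier results of these data known. Values on each array are given, by rule, for members called after quantile normalization, called as deposited with a change of at least 0.5 relative to the median of all genes, or changed by at least 1 on either scale, and, in each role, for the member with the largest change and the one with the highest mean. Other members with such values were chosen after their values were seen. In the other lists the member with the largest change is named by rule. Alternatives were the values as deposited, median centring, no variance trend, a robust variance, the replicate number as a block, a filter on dim genes, each array left out and, added after the data were seen, centring on the background rows. Promoter windows are those of RefSeq (GRCh38.p14), 250 bases before to 50 after each start, found for 38 of 43 members by symbol.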

Additional observations from a re-analysis of the deposited data

How the results depend on the processing

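0 members were called higher under every alternative run, and 0 lower under all of them except the values as deposited. The deposited values called 7 of 43 lower (16.3%, against 24.9% of all genes). They put the members' median at -0.38, where the median of all genes was -0.45. Over the fits that left out 1 array, the members' median ran from -0.02 to 0.04 and limma called 0 members. Counts over all genes, 36 higher and 21 lower, depended on the setting. With the replicate number as a block they were 115 and 123, with 0 members called. The lowest limma adjusted p of a member was then 0.161, against 0.409 without the block. The replicate numbers come from the titles, and the labels do not say that they mark shared cultures. Deviations of nocodazole and DMSO replicates of 1 number correlated at 0.22 over all genes and 0.47 over the members. The counts over all genes were 79 and 90 without dim genes, where 26 members were tested. They were 10 and 0 without a variance trend, 19 and 1 after median centring, and 5341 lower as deposited. Centring on the background rows left 0 lower. Without nocodazole replicate 2 or nocodazole replicate 3 there were 0 higher, without DMSO replicate 2 there were 6 and without DMSO replicate 3 12, with 0 lower in each. The count of 20 members above background was 8 with a margin of 2 and 0 against the highest background row of each array. As deposited, 3 of 10 receptor and signalling genes (30%) were called lower, as was 1 of 12 RNA sensing genes (8.33%). Of 56 further ISGs 17 (30.4%) were called lower. These shares stand against 24.9% of all genes and 39.5% of all genes above background.

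The sign of the change as deposited was opposite for 23 of the 43 members, and among those named by rule for IRF1 (-0.22), IRF7 (-0.39), IFIT5 (-0.21), OASL (-0.17), UBE2L6 (-0.43), IFITM3 (-0.36), PSMB8 (-0.19), SAMD9 (-0.10) and IFI27 (-0.038). UBE2L6 turned to -0.018 after median centring, and centring on the background rows gave -0.059 for UBE2L6 and -0.014 for IRF7. With 1 array left out, changes ran from -0.10 to 0.22 for IRF7, from -0.22 to 0.30 for UBE2L6, from -0.060 to 0.045 for GBP1, from -0.16 to 0.0036 for GBP2, from 0.39 to 1.08 for IFIT2, from 0.065 to 0.58 for SAMD9 and from -0.21 to 0.11 for EIF2AK2. IRF7, UBE2L6 and GBP1 turned without nocodazole replicate 2 (-0.053, -0.030 and 0.038) and without DMSO replicate 3, EIF2AK2 without nocodazole replicate 2 and GBP2 without DMSO replicate 2. Of those named by rule, EIF2AK2, PARP9, DTX3L, LGALS3BP and UBE2L6 passed as deposited, at -0.53, -0.85, -0.81, -0.58 and -0.43. Among the other members IFI6 and PARP14 passed there, at -0.72 and -0.68. In the fits without 1 array a group is a single array, which is assumed to vary like the other group. The causes of these differences were not tested. For the 16 members near background the values are bounds on the level, and changes there may not show.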

Other observations

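IRF9 and TRIM25, which were left out of the members because their rows also carry another gene's symbol, had signals well above background. The row shared by IRF9, the DNA-binding subunit of the interferon-activated complex, and RNF31, a ubiquitin ligase subunit, had deposited log2 values of 6.43 and 6.395 with nocodazole, against 6.93 and 6.81 with DMSO, and its change after quantile normalization was 0.00. The row shared by TRIM25, a ubiquitin ligase of RIG-I signalling, and MIR3614 had 7.74 and 7.95 with nocodazole, against 8 and 8.20 with DMSO, with a change of 0.25. On these rows the 2 genes cannot be told apart.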
